A study of Homo sapiens with 32 samples.

Results

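The genes described are 45 genes of mitosis and of the passage from G2 into M phase, taken by symbol from a table of counts for 60107 genes, and all 45 matched 1 gene each. They are the cyclins CCNA2, CCNB1 and CCNB2 with their kinase CDK1, the phosphatases CDC25A, CDC25B and CDC25C with the kinase WEE1, and the mitotic kinases PLK1, PLK4, AURKA, AURKB, TTK and BUB1. They also take in the spindle checkpoint and anaphase genes BUB1B, BUB3, MAD2L1, CDC20, UBE2C, PTTG1 and ESPL1 and the chromosomal passenger genes BIRC5, INCENP and CDCA8. The centromere and kinetochore genes are CENPA, CENPE, CENPF, NDC80 and NUF2, and the kinesins are KIF11, KIF20A, KIF23, KIF2C and KIF4A. The spindle and cytokinesis genes are NUSAP1, TPX2, PRC1, ECT2, ANLN and HMMR, and the condensin genes are SMC2, NCAPG and NCAPH. FOXM1, a transcription factor of late cell cycle genes, and MKI67, which encodes the proliferation marker Ki-67, complete the list. Their levels were compared in 2 human lines after DNA damage by camptothecin (CPT), a poison of topoisomerase I, and after inhibition or knockout (KO) of ATM, the kinase that signals DNA double-strand breaks.

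Entry into mitosis is driven by CDK1 bound to a B-type cyclin. WEE1 holds the kinase inactive by phosphorylation, and the CDC25 phosphatases release it. DNA damage activates ATM and related kinases, which act on the CDC25 phosphatases and on p53, and p53 induces the CDK inhibitor p21, encoded by CDKN1A. Many genes of G2 and mitosis are repressed together by the DREAM complex in resting or p21-arrested cells and are switched on together in G2 by B-MYB, MuvB and FOXM1, so their transcripts are widely read as a measure of proliferation. In HEK293T cells, the SV40 large T antigen binds p53 and the RB family, whereas U2OS osteosarcoma cells keep wild-type p53.

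RNA was sequenced by the QuantSeq 3′ method, which counts fragments from the 3′ end of transcripts, in 32 libraries that are called here by the number in their titles. U2OS cells received 400 nM CPT (libraries 26 to 29) or DMSO (30 to 33), and HEK293T cells received 9 µM of the ATM inhibitor KU-55933 (18 to 21) or DMSO (22 to 25), for 24 h with 48 h of recovery. The labels of libraries 18 to 21 read ATM KO, whereas the study's text reports RNA sequencing of HEK293T cells for the inhibitor. HEK293T cells were also treated with 100 nM CPT or DMSO, and untreated U2OS wild-type (WT) and ATM KO cells, the latter made with CRISPR/Cas9 and picked as individual clones, were grown for 72 h. The CPT doses are those that the study's methods give for the proteomics samples made in parallel.

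For libraries 1 to 17, the profiles contradicted the labels. Of these 16 libraries, 14 had a higher summed level of the markers of the other line than of the labelled one (9 U2OS and 6 HEK293T genes), against 0 of the 16 libraries numbered 18 to 33. They were therefore regrouped by line, with the even-numbered libraries, whose labels name CPT or ATM KO, kept as the treated or KO set and the odd-numbered ones, whose labels name DMSO or WT, as the controls. No label gives this assignment. Libraries 10, 12, 14 and 16, labelled U2OS ATM KO, were read as HEK293T CPT. Libraries 11, 13 and 15, labelled U2OS WT, and 17, labelled HEK293T DMSO, were read as HEK293T DMSO. Libraries 2, 4, 6 and 8, labelled HEK293T CPT, were read as U2OS ATM KO. Libraries 1, labelled U2OS WT, and 3, 5 and 7, labelled HEK293T DMSO, were read as U2OS WT. Each statement on these libraries rests on that reading, and the word regrouped marks it. CDKN2A, a marker of HEK293T cells here, was at 0 to 0.314 CPM (counts scaled to a common library size) in the regrouped U2OS WT libraries and at 269 to 423 CPM in the regrouped HEK293T DMSO libraries. S100A6, a U2OS marker, was at 172 to 210.3 and 0 to 0.202 CPM in the same sets. CLU, which made up much of the U2OS sum, was at 2630 to 4717 and 27.1 to 44.6 CPM there. The marker lists were chosen with earlier results of these data known, so the count of 14 is not an independent check. Not every listed marker behaved as listed. L1CAM, on the HEK293T list, ran the other way, at 219.5 to 374 CPM in the regrouped U2OS WT and 0.626 to 1.42 CPM in the regrouped HEK293T DMSO libraries, and also at 178 to 287 CPM in U2OS DMSO and 1.81 to 4.98 CPM in HEK293T DMSO libraries 22 to 25, whose labels the marker sums do not contradict. PAX2, on the same list, did not separate the regrouped sets (1.89 to 3.75 and 2.82 to 4.23 CPM). Each library held 1232674 to 6362433 counts assigned to genes, so that the limit that a count of 0 allows, 3 counts, equalled 2.43 to 0.472 CPM without further scaling, and such limits cover counting error only.

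Levels are given as CPM scaled by TMM factors over all 32 libraries, and differences as log2 fold changes with their standard errors (SE) from edgeR's quasi-likelihood test on the counts. A gene passed the test at a Benjamini-Hochberg adjusted p under 0.05 over all genes of a comparison, and was past the cutoff if its log2 fold change was also over 1 in size. All 45 genes entered every comparison, since 2 or more libraries held over 1 count of each. The study's methods describe 4 independent repeats of each experiment, and the labels do not tie a library to a repeat, so p-values measure the spread between the 4 libraries of a group.

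In U2OS cells, almost the whole list was lower with CPT. In edgeR's test 41 of the 45 genes fell and 0 rose, and 12 of the falls were past the cutoff. Among all 19080 genes tested, 15.3% fell, 16.6% rose and 5.5% fell past the cutoff. The median log2 fold change of the 45 genes was -0.88, with values from -1.47 to -0.05, beside a median of 0.0079 over all genes. For 37 of the 45 genes, every CPT library lay below every DMSO library, as it did for 14.2% of all genes tested. No gene of the list lay above 0 at an unadjusted p under 0.05 (0 of 45) and 41 lay below, beside 7839 of all 19080 genes in either direction. DESeq2 also called 0 rises and 41 falls. In bulk RNA, fewer dividing cells and less of these transcripts per cell cannot be told apart. CDKN1A stood at 512, 464, 446 and 448 CPM in the CPT libraries and at 99.999, 92.7, 96.3 and 105 CPM in the DMSO libraries (log2 fold change 2.24, SE 0.11, adjusted p = 1.85e-16).

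**Figure D1:**
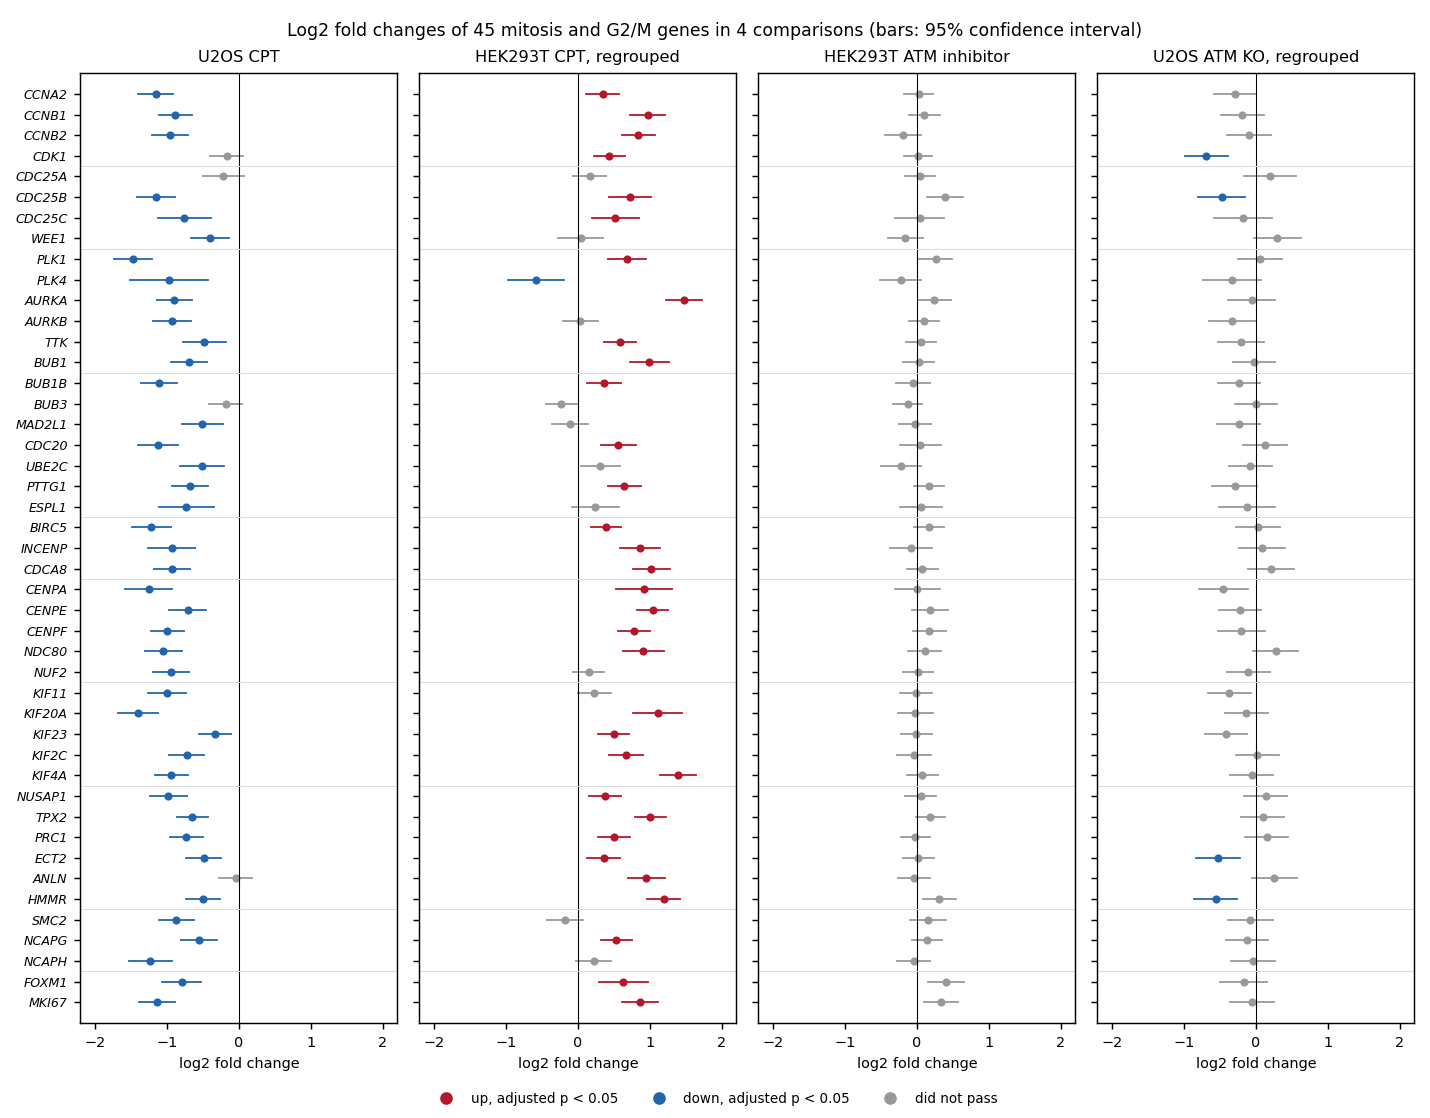
Log2 fold changes of the 45 genes (rows, grouped by role) in 4 comparisons (panels), with bars for the 95% confidence interval; red and blue points passed the test upwards and downwards, and grey points did not pass. The points lie to the left of 0 for U2OS CPT (41 falls), mostly to the right for HEK293T CPT, regrouped (33 rises and 1 fall), and near 0 for the ATM inhibitor (0 calls).

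On GRCh38 in the GENCODE 29 annotation, CCNB1 (ENSG00000134057) lies at chr5:69167010-69178245 on the plus strand, CDK1 (ENSG00000170312) lies at chr10:60778331-60794852 on the plus strand, PLK1 (ENSG00000166851) lies at chr16:23677656-23690367 on the plus strand and AURKA (ENSG00000087586) lies at chr20:56369389-56392337 on the minus strand. Counts were summed over each whole gene, and exons were not told apart. Among the cyclins, CCNA2, the A-type cyclin of S and G2 phase, stood at 67.7, 78.7, 90.3 and 83.0 CPM in libraries 26 to 29 with CPT and at 188, 183, 177 and 160.2 CPM in libraries 30 to 33 with DMSO (log2 fold change -1.15, SE 0.12, adjusted p = 2.64e-09). CCNB1, the cyclin that carries CDK1 into mitosis, stood at 90.7, 92.2, 97.4 and 95.2 CPM with CPT and at 178, 189, 172 and 149 CPM with DMSO (log2 fold change -0.88, SE 0.11, adjusted p = 2.21e-07). For both cyclins the CPT libraries were the low ones and the groups did not overlap. CDK1 itself was a different case. Its level was 173, 190.3, 228 and 189 CPM with CPT and 224, 225, 212 and 213 CPM with DMSO (log2 fold change -0.17, SE 0.11, adjusted p = 0.259, 95% confidence interval -0.40 to 0.06), so the groups overlapped through library 28 and the gene did not pass. CCNB2, a further B-type cyclin, fell by a log2 fold change of -0.96 (SE 0.12).

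Of the regulators of CDK1, CDC25B, the phosphatase that starts CDK1 activation at the centrosome, changed most. It stood at 39.6, 45, 39.0 and 40.1 CPM with CPT and at 91.7, 73.1, 96.6 and 98.5 CPM with DMSO (log2 fold change -1.15, SE 0.13, adjusted p = 1.69e-08), with no overlap between the groups. CDC25C, which acts on nuclear CDK1, is a gene of low level, at 9.73, 13.5, 15.1 and 12.2 CPM with CPT and 20.9, 22.3, 18.3 and 23.1 CPM with DMSO (log2 fold change -0.76, SE 0.18, adjusted p = 0.00127). CDC25A, which also acts at the start of S phase, stood at 35.1, 32.6, 24.7 and 30.8 CPM with CPT and at 36.0, 38.7, 34.1 and 34.1 CPM with DMSO (log2 fold change -0.22, SE 0.14, adjusted p = 0.257, 95% confidence interval -0.50 to 0.07). Its groups overlapped and it did not pass, unlike the other CDC25 genes, although this contrast between the 3 genes was not tested itself. WEE1, the kinase opposing them, fell from 81.1, 70.0, 65.0 and 55.7 CPM with DMSO to 57.0, 45, 50.9 and 53.3 CPM with CPT (log2 fold change -0.40, SE 0.13, adjusted p = 0.017), and its groups overlapped. The call of WEE1 was lost without library 27 or 30 (adjusted p = 0.0762 and 0.0744).

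All 6 mitotic kinases fell, beside 15.3% of all genes tested. PLK1, which promotes mitotic entry, spindle assembly and cytokinesis, had the largest fall of the 45 genes, from 79.9, 80.1, 88.6 and 104 CPM in the DMSO libraries to 29.2, 32.2, 33.4 and 33.6 CPM in the CPT libraries (log2 fold change -1.47, SE 0.13, adjusted p = 1.54e-10). The highest CPT library was thus below every DMSO library by a wide margin. AURKA, the kinase of the spindle poles, stood at 87.9, 87.5, 102 and 97.3 CPM with CPT and at 149.9, 173, 167 and 206 CPM with DMSO (log2 fold change -0.90, SE 0.12, adjusted p = 3.78e-07). AURKB, the kinase of the chromosomal passenger complex, stood at 32.7, 37.3, 41.4 and 42.2 CPM and 65.2, 77.3, 78.7 and 71.2 CPM (log2 fold change -0.94, SE 0.13, adjusted p = 8.17e-07). Neither Aurora kinase overlapped between the groups. BUB1 and TTK, kinases of the spindle checkpoint, fell by log2 fold changes of -0.69 and -0.48, the latter call being lost without library 26 (adjusted p = 0.0684). PLK4, the kinase that starts centriole duplication, fell by a log2 fold change of -0.97 with the widest error of the group (SE 0.26, adjusted p = 0.00437), and its groups overlapped.

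**Figure D2:**
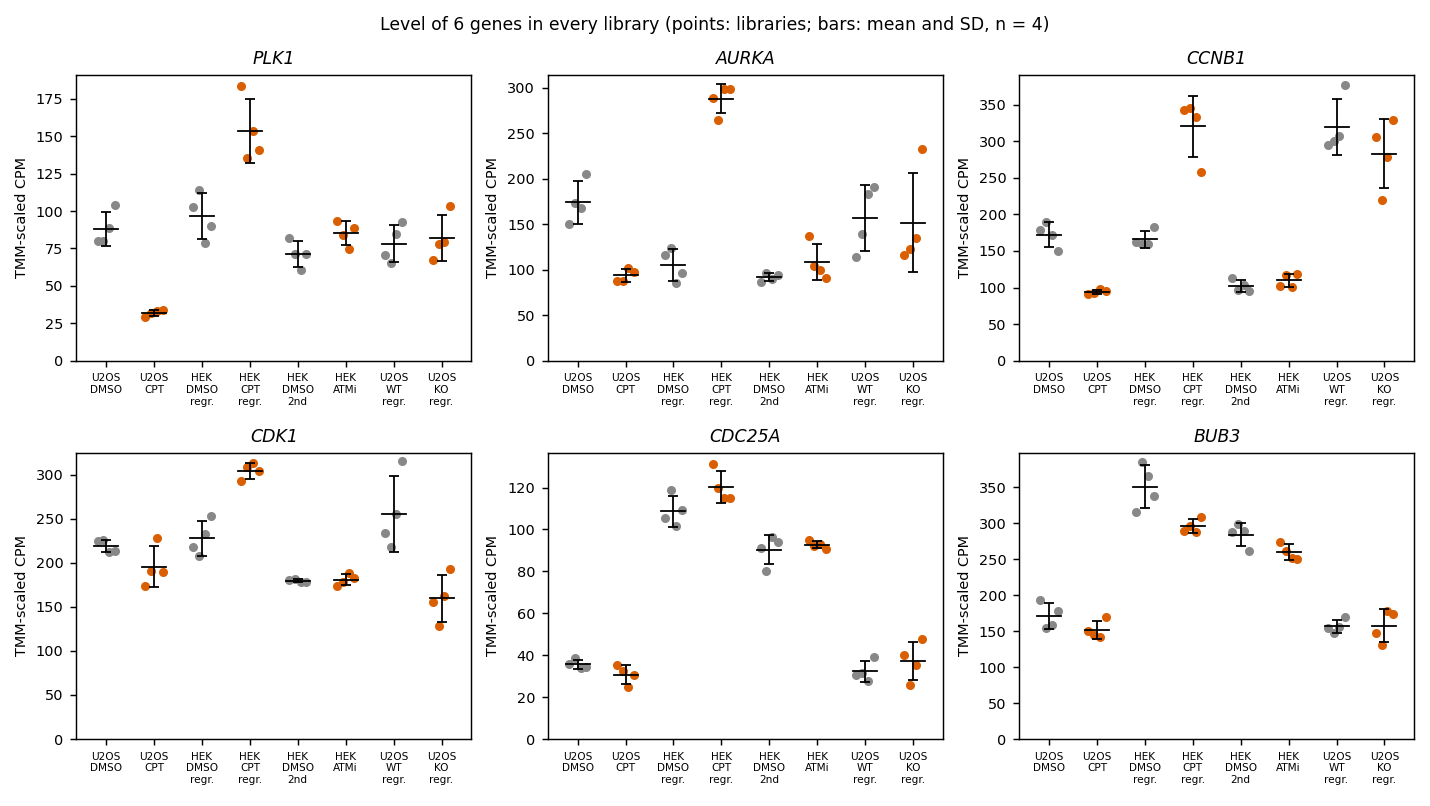
TMM-scaled CPM of 6 genes in every library (points) of 8 sets on linear axes from 0, with bars for the mean and SD (n = 4); HEK stands for HEK293T, ATMi for the ATM inhibitor, regr. for the regrouped libraries and 2nd for libraries 22 to 25. PLK1, AURKA and CCNB1 are low with CPT in U2OS and high with CPT in HEK293T, CDK1 is lowest in the regrouped U2OS KO libraries, and CDC25A and BUB3 separate the 2 lines.

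Of the 7 genes of the spindle checkpoint and of anaphase, 6 fell, beside 15.3% of all genes tested. CDC20, the activator that turns the anaphase-promoting complex (APC/C) on its mitotic targets, stood at 41.0, 35.9, 44.9 and 50.8 CPM with CPT and at 87.9, 101, 77.4 and 107 CPM with DMSO, without overlap (log2 fold change -1.12, SE 0.13, adjusted p = 5.91e-08). BUB1B, whose product BUBR1 holds CDC20 back, fell by a log2 fold change of -1.11, ESPL1 (separase) by -0.73 and its inhibitor PTTG1 (securin) by -0.68. UBE2C, a ubiquitin-conjugating enzyme of the APC/C, and MAD2L1, the checkpoint protein MAD2, fell by log2 fold changes of -0.51 and -0.51, with overlapping groups, and UBE2C lost its call without library 26 (adjusted p = 0.0508). BUB3, a checkpoint protein, did not pass, with 151, 145, 141 and 169.6 CPM with CPT and 194, 154, 158 and 179 CPM with DMSO (log2 fold change -0.18, SE 0.11, adjusted p = 0.233, 95% confidence interval -0.41 to 0.05).

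The passenger, kinetochore and motor genes fell together, with 3 of 3 passenger genes, 5 of 5 centromere and kinetochore genes and 5 of 5 kinesins passing downwards. The share of all genes that fell was 15.3%. BIRC5, which encodes survivin, stood at 58.0, 58.2, 55.3 and 43.3 CPM with CPT and at 147, 116, 133 and 101 CPM with DMSO (log2 fold change -1.22, SE 0.13, adjusted p = 1.04e-08). CENPA, the histone H3 variant of centromeres, stood at 17, 18.3, 20.3 and 17.9 CPM and 46.9, 52.6, 43.1 and 32.6 CPM (log2 fold change -1.25, SE 0.16, adjusted p = 1.71e-07). KIF20A, a kinesin of the central spindle, stood at 55.6, 62.6, 49.3 and 60.1 CPM and 182, 173, 128 and 116 CPM (log2 fold change -1.40, SE 0.14, adjusted p = 1.38e-09), the second largest fall. In none of these 3 genes did a CPT library reach a DMSO library. KIF23, the kinesin of the centralspindlin complex, had a log2 fold change of -0.33 (SE 0.11), the smallest of the kinesins, and lost its call without library 26 (adjusted p = 0.0795). KIF11, which slides spindle microtubules apart, and KIF2C, which depolymerises them, fell by -1.003 and -0.73, and KIF4A, which binds chromosomes, by -0.94. The kinetochore genes NDC80 and NUF2, partners in the complex that binds microtubules, fell by -1.05 and -0.95, CENPF by -0.99 and CENPE, a kinetochore motor, by -0.71. INCENP, the scaffold of the passenger complex, and CDCA8 (borealin) both fell by -0.93.

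Of the 6 spindle and cytokinesis genes, 5 fell and 0 of them were past the cutoff, with a median log2 fold change of -0.57. Among all genes tested, 15.3% fell and 5.5% did so past the cutoff. ANLN, an actin-binding protein of the cleavage furrow, was the gene nearest to 0, at 211, 265, 256 and 230.0 CPM with CPT and 282, 255, 237 and 215 CPM with DMSO (log2 fold change -0.05, SE 0.11, adjusted p = 0.803, 95% confidence interval -0.28 to 0.19). HMMR, a spindle-associated hyaluronan receptor, stood at 100.05, 116, 105 and 89.1 CPM and 145, 129.9, 160.1 and 142 CPM (log2 fold change -0.50, SE 0.12, adjusted p = 0.00109). The groups overlapped for ANLN and not for HMMR. NUSAP1, which bundles spindle microtubules, fell by -0.98, PRC1, which bundles those of the midzone, by -0.73, TPX2, an activator of AURKA, by -0.65 and ECT2, the exchange factor that activates RhoA for cytokinesis, by -0.49. All 3 condensin genes fell, and NCAPH, a subunit of condensin I, fell most, from 79.4, 88.1, 83.6 and 81.7 CPM with DMSO to 24.7, 35.1, 48.1 and 34.7 CPM with CPT (log2 fold change -1.23, SE 0.15, adjusted p = 5.35e-08). FOXM1 stood at 61.8, 47.9, 43.7 and 40.8 CPM with CPT and at 92.0, 70.7, 87.3 and 85.1 CPM with DMSO (log2 fold change -0.79, SE 0.13, adjusted p = 1.88e-05). MKI67 stood at 359.5, 398, 431 and 372 CPM and 684, 773, 899 and 1057 CPM (log2 fold change -1.14, SE 0.12, adjusted p = 9.01e-09). Both were lower in every CPT library than in any DMSO library.

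Further genes of the same processes were read against the same shares of all genes, 15.3% falling and 16.6% rising. Of 33 other kinetochore and centromere genes, 26 fell and 1 rose (median log2 fold change -0.69), led by CENPH (-1.27) and KNTC1 (-1.11). Of 27 other spindle and cytokinesis genes, 24 fell and 0 rose, with the kinesins KIF15 (-1.53) and KIF22 (-1.27) first. Of 17 other condensin and cohesin genes, 14 fell, with the cohesin subunit RAD21 at -1.14. Of 28 genes of replication licensing and S phase, 20 fell, with the helicase subunits MCM6 at -1.80 and MCM7 at -1.48. Of 17 APC/C genes 6 fell (median -0.20), and of 12 subunits of MMB and DREAM 5 fell, among them LIN52 at -1.19. Of 14 other regulators of G2/M entry, 9 fell and 3 rose. The risers included GADD45A, a damage-induced gene that restrains CDK1 (2.33), and CDKN1A, whereas the checkpoint kinase gene CHEK1 fell (-0.97).

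The share of reads on no annotated feature was 30.9% to 39.9% in the CPT libraries and 33.6% to 38.7% in the DMSO libraries. The summed level of the 9 U2OS markers was 5860.4 to 6509 CPM with CPT and 2607 to 3344 CPM with DMSO, where 8 of them rose, and that of the 6 HEK293T markers was 274 to 339 CPM and 276 to 395 CPM, with CDKN2A at most 1.04 CPM. Much of the latter sum was L1CAM, at 147 to 177 CPM with CPT and 178 to 287 CPM with DMSO. The part of these shifts in the falls was not tested. The level of the list as a whole, as the mean log2 CPM of its genes, was 6.08 to 6.29 in the CPT libraries and 6.96 to 7.004 in the DMSO libraries.

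**Figure D3:**
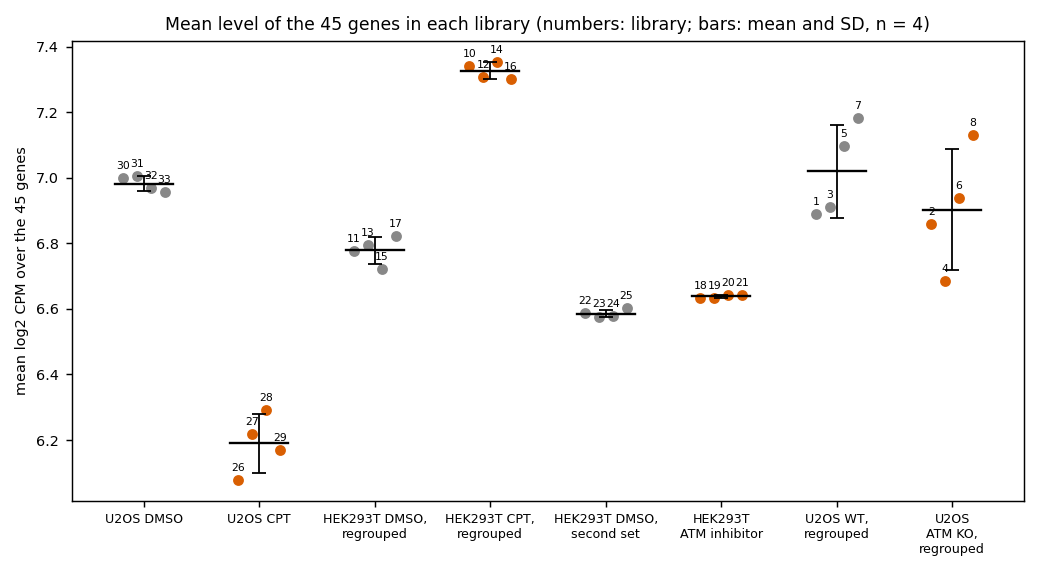
Mean log2 CPM over the 45 genes in each library (points, numbered by library), with bars for the mean and SD of each set of 4. The U2OS CPT libraries lie lowest (6.08 to 6.29) and the HEK293T CPT, regrouped, libraries highest (7.30 to 7.35), and the regrouped U2OS WT and ATM KO libraries overlap and spread most.

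In the regrouped HEK293T libraries the list moved the other way. Libraries 10, 12, 14 and 16, labelled U2OS ATM KO and read as HEK293T CPT, had a mean log2 CPM over the 45 genes of 7.30 to 7.35. Libraries 11, 13 and 15, labelled U2OS WT, and 17, labelled HEK293T DMSO, had 6.72 to 6.82. Of the 45 genes, 33 were higher, 7 of them past the cutoff, and 1 was lower, beside 17.6%, 9.52% and 17.3% of all 19464 genes tested. The median log2 fold change was 0.56 (all genes 0.04), with values from -0.58 to 1.47. Every library of the first set lay above every one of the second for 31 genes and below for 1, against 15.1% and 16.4% of all genes. Here too, a larger share of cells in G2 or mitosis and more of these transcripts per cell cannot be told apart in bulk RNA.

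Values moved beside this difference. CDKN1A was higher here too, at 112, 132, 113 and 207 CPM in libraries 10, 12, 14 and 16 and at 27.6, 19.2, 52.1 and 29.4 CPM in libraries 11, 13, 15 and 17 (log2 fold change 2.17, SE 0.22, adjusted p = 8.79e-08). The share of reads on no annotated feature was 15.8% to 18.5% in the first set and 9.39% to 11% in the second. The summed level of the 9 U2OS markers was 183 to 267 CPM against 80.2 to 89.0 CPM, with 5 of 8 tested higher, while S100A6 reached at most 0.57 CPM and CD44 at most 1.14 CPM in the first set. The summed level of the 6 HEK293T markers was 559.5 to 708 CPM against 813 to 1047 CPM, with L1CAM at 8.77 to 15.1 CPM against 0.626 to 1.42 CPM. The part of these shifts in the differences was not tested.

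The kinases held the largest rise. AURKA stood at 289, 265, 299 and 298 CPM in libraries 10, 12, 14 and 16 and at 116, 123, 85.2 and 96.6 CPM in libraries 11, 13, 15 and 17 (log2 fold change 1.47, SE 0.12, adjusted p = 3.73e-09). PLK1 stood at 183, 135, 154 and 141 CPM and 102, 114, 78.9 and 90.3 CPM (log2 fold change 0.68, SE 0.13, adjusted p = 2.32e-04). AURKB did not follow, with 181, 151, 161 and 151 CPM and 155, 194, 139.7 and 149 CPM (log2 fold change 0.03, SE 0.12, adjusted p = 0.858, 95% confidence interval -0.21 to 0.28). The groups thus separated for AURKA and PLK1 and overlapped for AURKB. BUB1 rose by a log2 fold change of 0.99 and TTK by 0.59. PLK4 was the only one of the 45 genes that passed downwards (log2 fold change -0.58, SE 0.19, adjusted p = 0.0209), a call that was lost with DESeq2 (log2 fold change -0.54, adjusted p = 0.0544) and without library 10, 16 or 17.

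All 4 genes of the CDK1 complex were higher, beside 17.6% of all genes tested. CCNB1 stood at 343, 346, 333 and 259 CPM in the CPT set and at 162, 159, 159 and 183 CPM in the DMSO set (log2 fold change 0.97, SE 0.12, adjusted p = 9.46e-07), with library 16 lowest of the first set. CDK1 stood at 292, 308, 313 and 304 CPM and 218, 207, 232 and 254 CPM (log2 fold change 0.44, SE 0.11, adjusted p = 0.00238). CCNA2 differed least and lost its call without library 11, 14 or 15 (adjusted p = 0.0508 to 0.0736), with 171, 168, 191 and 156 CPM and 134, 131, 130.3 and 153 CPM (log2 fold change 0.34, SE 0.11, adjusted p = 0.0187). No library of one set reached the other for these 3 genes. Of their regulators, CDC25B stood at 83.2, 64.4, 79.5 and 93.6 CPM and 49.2, 61.4, 39.2 and 47.8 CPM (log2 fold change 0.72, SE 0.14, adjusted p = 3.28e-04). Its sets lay apart. CDC25C stood at 25.8, 26.9, 20.9 and 30.6 CPM and 15.3, 21.2, 20.5 and 17.1 CPM (log2 fold change 0.52, SE 0.16, adjusted p = 0.0141), with overlapping sets, and lost its call without library 11 or 16 (adjusted p = 0.0653 and 0.0525). CDC25A stood at 131, 119.8, 115 and 115 CPM and 105, 119, 101 and 109 CPM (log2 fold change 0.16, SE 0.11, adjusted p = 0.257). WEE1 stood at 49.99, 46.6, 54.5 and 46.4 CPM and 45, 35.8, 48.0 and 66.1 CPM (log2 fold change 0.04, SE 0.15, adjusted p = 0.869). CDC25A and WEE1 did not pass and their sets overlapped.

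Among genes of the checkpoint and anaphase, 3 of 7 rose, namely BUB1B, CDC20 and PTTG1, beside 17.6% of all genes tested. The call of BUB1B was lost without library 10 or 11 (adjusted p = 0.056 and 0.0606). CDC20 stood at 102, 137, 140.4 and 112 CPM in the CPT set and at 83.3, 88.3, 84.0 and 81.4 CPM in the DMSO set (log2 fold change 0.56, SE 0.12, adjusted p = 8.04e-04). BUB3 stood at 289, 295, 288 and 309 CPM and 315, 385, 365 and 338 CPM (log2 fold change -0.23, SE 0.10, adjusted p = 0.0933), so that every library of the first set was below every one of the second while the gene missed the threshold. All 3 passenger genes rose, CDCA8 most, with 231, 179.8, 209.8 and 224 CPM in the CPT set and 106, 130.3, 97.0 and 89.7 CPM in the DMSO set, without overlap (log2 fold change 1.02, SE 0.12, adjusted p = 1.23e-06). 4 of 5 centromere and kinetochore genes rose. CENPE, the kinesin of kinetochores, stood at 637, 624, 672 and 760.0 CPM and 334, 361, 324 and 312 CPM (log2 fold change 1.04, SE 0.11, adjusted p = 1.01e-07), and its sets lay apart. NUF2 did not pass (0.15), although its partner in the NDC80 complex, NDC80, rose by a log2 fold change of 0.91.

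The motors and spindle genes rose almost throughout, with KIF11 (0.23) as the exception among the kinesins, at 4 of 5 kinesins and 6 of 6 spindle and cytokinesis genes. The share of all genes that rose was 17.6%. KIF4A, a chromosome-bound kinesin, stood at 184, 216, 181 and 209 CPM in the CPT set and at 71.4, 90.6, 77.3 and 66.7 CPM in the DMSO set (log2 fold change 1.39, SE 0.12, adjusted p = 7.18e-09). KIF20A stood at 172, 156, 155 and 95.3 CPM and 73.5, 55.5, 54.9 and 87.3 CPM (log2 fold change 1.11, SE 0.17, adjusted p = 1.82e-05). HMMR stood at 407, 358, 396 and 408 CPM and 159.8, 188, 192 and 158 CPM (log2 fold change 1.19, SE 0.11, adjusted p = 2.19e-08). In each of these 3 genes the sets did not overlap. ANLN, which did not pass in U2OS cells, rose by a log2 fold change of 0.95, and TPX2 by 1.01. Of the condensin genes 1 of 3 rose (NCAPG, 0.53), while SMC2 (-0.17) and NCAPH (0.22) did not pass. With 3 genes, that count cannot be told apart from the share of all genes. FOXM1 stood at 50.6, 34.5, 49.6 and 58.6 CPM and 37.1, 38.5, 23.8 and 27.4 CPM (log2 fold change 0.63, SE 0.17, adjusted p = 0.00483), and MKI67 at 613, 579.6, 529 and 647 CPM and 365, 378, 262 and 315 CPM (log2 fold change 0.86, SE 0.12, adjusted p = 6.20e-06). FOXM1 overlapped between the sets and MKI67 did not.

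The other pathway lists are read against the shares of all genes in this comparison, 17.6% higher and 17.3% lower. The other spindle and cytokinesis genes rose in 19 of 27 cases and fell in 2, with FAM83D (1.17) and DEPDC1 (0.99) first and KIF22 (-0.44) and KIF15 (-0.42) last. The other kinetochore and centromere genes were near these shares in both directions, with 6 higher, among them SGO2 (1.09) and HJURP (0.96), and 7 lower, among them PMF1 (-0.78) and CENPM (-0.72), of 33. Of the replication and S phase genes, 5 rose and 9 fell, with CCNE2 at 1.07 and DNA ligase I (LIG1) at -1.31. No APC/C gene rose and 5 of 17 fell, and of the MMB and DREAM subunits 5 of 12 fell, with E2F5 at -1.48 and RBL1 at -0.85. Of the other condensin and cohesin genes 6 rose and 1 fell, and of the other G2/M entry regulators 5 rose and 2 fell.

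The difference between the CPT responses was tested in 1 fit of the 16 libraries, as the response in U2OS minus that in the regrouped HEK293T libraries. 40 of the 45 genes had the lower response in U2OS, 32 of them past the cutoff, and 0 the higher. Among all 22363 genes tested, 10.5% had the lower response, 6.71% past the cutoff, and 9.86% the higher. At an unadjusted p under 0.05, 0 were higher and 43 lower, beside 6958 of all 22363 genes in either direction. DESeq2 called 0 higher and 40 lower. The median difference was -1.42 (all genes -0.06). KIF20A differed most (-2.49, SE 0.22, adjusted p = 4.45e-12), followed by AURKA (-2.36, SE 0.18, adjusted p = 3.26e-14), KIF4A (-2.32, SE 0.17, adjusted p = 1.35e-14), CENPA (-2.16, SE 0.25, adjusted p = 5.47e-09) and PLK1 (-2.14, SE 0.19, adjusted p = 4.18e-12). The 5 genes that did not pass were CDC25A (-0.37, 95% confidence interval -0.73 to -0.02), WEE1 (-0.44, 95% confidence interval -0.85 to -0.03), PLK4 (-0.39, 95% confidence interval -1.07 to 0.30), MAD2L1 (-0.39, 95% confidence interval -0.77 to -0.01) and BUB3 (0.05, 95% confidence interval -0.27 to 0.37). The response of CDKN1A did not pass in this test (0.05, SE 0.25, adjusted p = 0.988; 95% confidence interval -0.46 to 0.56). The doses were 400 nM in U2OS and 100 nM in HEK293T cells, and the line and the dose cannot be told apart in this comparison.

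**Figure D4:**
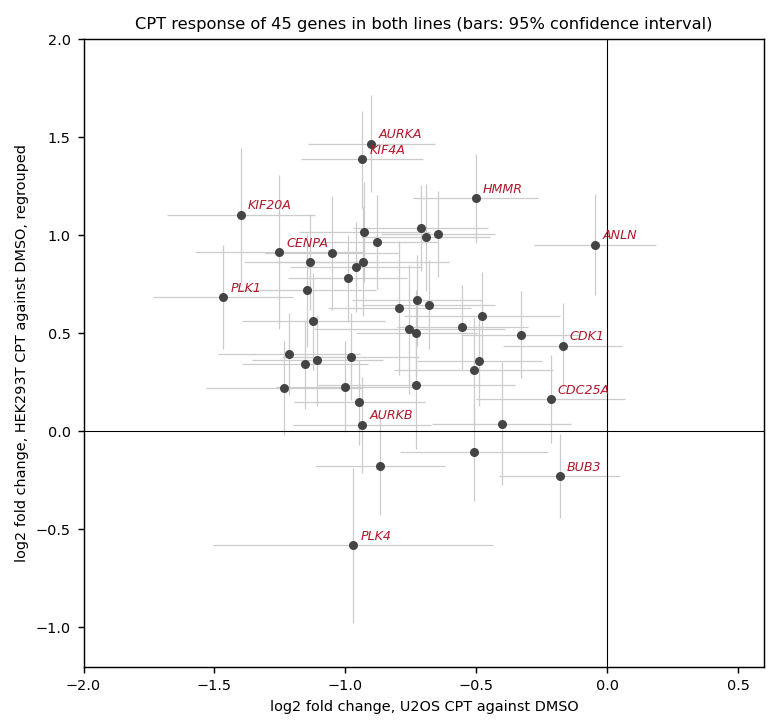
Log2 fold changes of the 45 genes (points) with CPT in U2OS cells (horizontal axis) and in the regrouped HEK293T libraries (vertical axis), with bars for 95% confidence intervals; the comparisons share no library. Most points lie in the upper left (31 genes passed downwards in U2OS and upwards in HEK293T), PLK4 lies below 0 on both axes, and BUB3 and CDC25A lie near the origin. The share of all genes with both calls was not counted.

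Both CPT comparisons used separate libraries. Gene by gene, 31 of the 45 passed downwards in U2OS and upwards in the regrouped HEK293T libraries, 9 passed downwards in U2OS with no call in HEK293T, and 1, PLK4, passed downwards in both. Joint calls of this kind were not counted over all genes, so these counts have no background share beside them. CDK1 and ANLN passed only in HEK293T, and CDC25A and BUB3 in neither. With library sizes alone, which moved the median of all genes in U2OS to -0.16, CDK1 (-0.34, adjusted p = 0.0207), CDC25A (-0.39, adjusted p = 0.0441) and BUB3 (-0.36, adjusted p = 0.0201) also passed downwards in U2OS. ANLN and CDK1 had differences between the CPT responses of -0.99 (adjusted p = 1.92e-05) and -0.60 (adjusted p = 0.00354), so that the responses of both genes differed between these libraries.

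Promoters of the genes were read from RefSeq windows on GRCh38.p14, from 250 bases before the transcript start to 50 bases after, with the first window listed for each gene. A window was at hand for 37 of the 45 genes, and UBE2C, TTK, AURKA, WEE1, BIRC5, FOXM1, TPX2 and BUB3 had none in the table. The searched motifs were CHR, the cell cycle genes homology region bound by MuvB complexes (TTTGAA or TTCGAA), and CCAAT, bound by NF-Y, each on both strands, with overlapping sites on opposite strands counted separately. A CHR motif was found in 26 of the 37 windows (70.3%) and in 16.6% of the windows of all 27303 genes. CCAAT was found in 26 (70.3%) and in 35.7% of all genes, and both motifs in 19 (51.4%) and in 6.58%. These counts describe letters in a window and do not show a bound site. Within the list, the 26 genes with a CHR motif had a median log2 fold change of -0.94 with CPT in U2OS cells, and the 11 without one had -0.88. In the regrouped HEK293T libraries the medians were 0.55 and 0.65.

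The windows of 5 genes are printed because their transcripts mark the ends of the responses. They are PLK1, KIF20A and CENPA, the largest falls in U2OS cells, KIF4A, the largest rise in the regrouped HEK293T libraries among genes with a window, and PLK4, which passed downwards in both. The groups of PLK4 overlapped in both comparisons, and its call in HEK293T was lost with DESeq2 (adjusted p = 0.0544). Capitals mark CHR and CCAAT motifs on either strand, and the sequences run 5′ to 3′ along the gene. PLK1 (chr16:23678639-23678938, plus strand) holds CCAAT starting 73 bases and CHR starting 29 bases before the start. KIF20A (chr5:138178862-138179161, plus strand) holds 2 CCAAT motifs on the opposite strand and no CHR. CENPA (chr2:26785806-26786105, plus strand) holds CHR starting 18 bases before the start and 2 CCAAT motifs on the opposite strand. KIF4A (chrX:70289854-70290153, plus strand) holds CCAAT on the opposite strand starting 58 bases and CHR starting 34 bases before the start. PLK4 (chr4:127880643-127880942, plus strand) holds no CCAAT, and its CHR letters, on the opposite strand, lie after the start, from base 39.
PLK1: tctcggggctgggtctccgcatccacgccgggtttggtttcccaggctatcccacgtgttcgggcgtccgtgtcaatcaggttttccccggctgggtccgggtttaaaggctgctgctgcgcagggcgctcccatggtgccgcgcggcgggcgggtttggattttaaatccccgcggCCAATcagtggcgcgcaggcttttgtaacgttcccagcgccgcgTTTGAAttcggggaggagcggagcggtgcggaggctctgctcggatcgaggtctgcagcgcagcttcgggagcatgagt
KIF20A: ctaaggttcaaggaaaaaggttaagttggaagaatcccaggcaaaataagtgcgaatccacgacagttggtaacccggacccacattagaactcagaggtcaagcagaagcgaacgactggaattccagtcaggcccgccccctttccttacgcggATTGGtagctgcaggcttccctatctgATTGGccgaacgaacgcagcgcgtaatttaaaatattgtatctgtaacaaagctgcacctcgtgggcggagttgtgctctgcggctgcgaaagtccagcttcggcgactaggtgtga
CENPA: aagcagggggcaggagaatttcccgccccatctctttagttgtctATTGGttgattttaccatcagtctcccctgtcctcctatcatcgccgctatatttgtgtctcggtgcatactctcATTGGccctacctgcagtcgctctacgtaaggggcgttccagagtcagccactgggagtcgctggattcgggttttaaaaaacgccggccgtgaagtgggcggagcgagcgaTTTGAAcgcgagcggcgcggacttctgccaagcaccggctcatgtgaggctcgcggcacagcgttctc
KIF4A: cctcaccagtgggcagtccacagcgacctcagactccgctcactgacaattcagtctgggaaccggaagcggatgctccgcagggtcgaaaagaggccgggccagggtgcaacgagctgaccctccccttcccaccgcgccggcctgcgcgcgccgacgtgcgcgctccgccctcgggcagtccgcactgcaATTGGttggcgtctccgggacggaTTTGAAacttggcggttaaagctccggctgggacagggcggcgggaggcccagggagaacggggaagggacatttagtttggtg
PLK4: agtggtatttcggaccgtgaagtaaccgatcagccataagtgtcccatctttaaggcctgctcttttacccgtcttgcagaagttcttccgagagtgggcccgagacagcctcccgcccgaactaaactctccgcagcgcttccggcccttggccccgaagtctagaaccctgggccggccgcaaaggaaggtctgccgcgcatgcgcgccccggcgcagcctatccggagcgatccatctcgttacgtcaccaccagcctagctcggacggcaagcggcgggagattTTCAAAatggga

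The ATM inhibitor gave no call on the list in HEK293T cells. 0 of the 45 genes rose and 0 fell in edgeR's quasi-likelihood test, beside 0% and 0.00543% of all 18413 genes tested, and DESeq2 called 0 of the 45 as well. At an unadjusted p under 0.05, 6 of the 45 genes were higher and 0 lower, beside 1019 of all 18413 genes in either direction, and the smallest adjusted p was 0.753. The log2 fold changes ran from -0.22 to 0.41 with a median of 0.04 (all genes 0.0026). The mean log2 CPM of the 45 genes was 6.634 to 6.643 in the inhibitor libraries and 6.577 to 6.602 in the DMSO libraries, so that the ranges did not overlap. The 95% confidence intervals of all 45 lay within 1 of 0 on the log2 scale, the outermost bounds being -0.51 and 0.66, so a change past the cutoff lay outside the interval of each gene. In 2 genes, FOXM1 and TPX2, every inhibitor library lay above every DMSO library, and in 0 below, against 1.56% and 1.53% of all genes. CDKN1A stood at 26.5, 23.4, 26.7 and 21.8 CPM in libraries 18 to 21 and at 19.1, 18.6, 34.7 and 30.7 CPM in libraries 22 to 25 (log2 fold change -0.07, SE 0.17, adjusted p = 0.978). The share of reads on no feature was 26.2% to 32.5% and 23.6% to 30.4%.

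FOXM1 had the largest log2 fold change of the list in this comparison, with 40.2, 39.0, 40.3 and 32.7 CPM in libraries 18 to 21 and 29.2, 26, 30.5 and 29.4 CPM in libraries 22 to 25 (log2 fold change 0.41, SE 0.12, adjusted p = 0.753). CDC25B stood at 48.8, 43.0, 47.4 and 36.3 CPM with the inhibitor and 34.1, 32.8, 30.1 and 37.4 CPM with DMSO (log2 fold change 0.39, SE 0.12, adjusted p = 0.766). MKI67 stood at 612, 561, 585 and 468 CPM and 377, 441, 397 and 558 CPM (log2 fold change 0.33, SE 0.12, adjusted p = 0.851). None of these passed, and CDC25B and MKI67 overlapped between the groups. HMMR passed when library 21 was left out (log2 fold change 0.42, adjusted p = 0.0351) and had 183, 187, 173 and 129 CPM and 127, 134, 131 and 149.7 CPM with all libraries (log2 fold change 0.31, SE 0.11, adjusted p = 0.851). For MKI67 and HMMR, and also for SMC2, CENPE and CENPF, library 21 was the lowest inhibitor library and library 25 the highest DMSO library. For UBE2C library 21 was the highest and library 25 the lowest of its group. Genes with either order were not counted over the list.

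The genes of the CDK1 switch lay near their controls, with the following intervals. CDK1 stood at 174, 178, 188 and 183 CPM with the inhibitor and 180.2, 182, 178 and 178 CPM with DMSO (0.01, 95% confidence interval -0.18 to 0.21). CCNB1 stood at 103, 117, 101 and 119 CPM and 113, 97.3, 103 and 95.8 CPM (0.11, 95% confidence interval -0.11 to 0.32). CCNA2 stood at 119, 109.7, 117 and 119 CPM and 113, 106, 124 and 115 CPM (0.02, 95% confidence interval -0.18 to 0.23). All of these overlapped between inhibitor and DMSO libraries. CDC25A stood at 94.8, 92.3, 93.0 and 90.5 CPM and 91.3, 80.2, 96.2 and 93.9 CPM (0.04, 95% confidence interval -0.17 to 0.25). CDC25C stood at 15.2, 12.8, 20.4 and 18 CPM and 15.3, 14.3, 18 and 17.1 CPM (0.04, 95% confidence interval -0.30 to 0.37). WEE1 stood at 52.1, 73.2, 54.5 and 73.4 CPM and 74.7, 78.2, 68.4 and 61.9 CPM (-0.16, 95% confidence interval -0.41 to 0.09). The regulators of CDK1 overlapped too.

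PLK1 stood at 93.6, 84.1, 74.4 and 88.8 CPM with the inhibitor and 82.2, 71.5, 60.9 and 71.3 CPM with DMSO (0.26, 95% confidence interval 0.03 to 0.49). AURKA stood at 137, 104, 100.1 and 91.1 CPM and 86.4, 96.0, 89.4 and 94.5 CPM (0.24, 95% confidence interval 0.01 to 0.48). AURKB stood at 194, 174, 158 and 166 CPM and 176, 170.1, 151 and 151 CPM (0.10, 95% confidence interval -0.11 to 0.31). Library 18 was the high one for AURKA. CDC20 stood at 63.0, 37.6, 40.0001 and 65.2 CPM and 49.4, 49.4, 51.1 and 50.2 CPM (0.05, 95% confidence interval -0.24 to 0.33), and BUB3 at 274, 262, 252 and 251 CPM and 287, 298, 289 and 261 CPM (-0.13, 95% confidence interval -0.33 to 0.08). Of the 7 lists of other pathway genes, none had a gene that passed in this comparison.

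In the regrouped U2OS ATM KO libraries, few genes of the list differed. Neither the labels nor the study's methods give the number of clones in these libraries. Loss of ATM and differences between clones therefore cannot be told apart in this comparison. ATM itself stood at 64.6, 59.0, 62.3 and 36.8 CPM in libraries 2, 4, 6 and 8, labelled HEK293T CPT, and at 66.7, 74.8, 61.3 and 67.3 CPM in libraries 1, labelled U2OS WT, and 3, 5 and 7, labelled HEK293T DMSO (log2 fold change -0.31, SE 0.17, adjusted p = 0.255). Counts from the 3′ end of a transcript need not show a deletion elsewhere in the gene, so these values check neither the knockout nor the labels. Of the 45 genes, 4 were lower and 0 higher, beside 6.56% and 6.43% of all 18591 genes tested. The median log2 fold change was -0.11 (all genes 0.04), with values from -0.69 to 0.30. In edgeR's test 0 were higher and 8 lower at an unadjusted p under 0.05, beside 4724 of all 18591 genes in either direction. DESeq2 called 0 higher and 4 lower, but not the same 4. It lost CDC25B (adjusted p = 0.0686) and called KIF23 (adjusted p = 0.0187). For 5 genes (CDK1, AURKB, CENPA, ECT2 and HMMR) every library of the KO set lay below every library of the WT set, and for 0 above, against 6.84% and 7.21% of all genes. The share of reads on no feature was 22.8% to 36.1% in the KO set and 22.9% to 33.5% in the WT set. CDKN1A stood at 81.6, 116, 108 and 174 CPM and 88.9, 97.0, 112 and 132 CPM (log2 fold change 0.15, SE 0.16, adjusted p = 0.622).

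CDK1 was the gene of the list with the largest difference. It stood at 155, 128, 163 and 193 CPM in libraries 2, 4, 6 and 8 and at 234, 218, 255 and 315 CPM in libraries 1, 3, 5 and 7 (log2 fold change -0.69, SE 0.15, adjusted p = 6.92e-04), and the highest KO library was below the lowest WT library. HMMR stood at 121, 90.6, 112 and 141 CPM and 144, 153, 191 and 190.0 CPM (log2 fold change -0.56, SE 0.15, adjusted p = 0.00673), also without overlap. ECT2 passed without overlap (log2 fold change -0.53, SE 0.15, adjusted p = 0.0121), and lost the call without library 4 (adjusted p = 0.0604). CDC25B stood at 41.6, 41.3, 42.7 and 69.9 CPM and 53.5, 60.1, 75.8 and 81.7 CPM (log2 fold change -0.48, SE 0.17, adjusted p = 0.0452). Library 8 overlapped the WT set for CDC25B, and the call was lost with DESeq2 (adjusted p = 0.0686) and without library 2, 4, 5, 6 or 7. The call of CDC25B was also lost without libraries 1 and 2, the shallowest, a setting chosen after seeing the data (adjusted p = 0.0714), under which KIF23 passed (adjusted p = 0.0309). KIF23 did not pass in the main test. It passed downwards with edgeR's likelihood ratio test (adjusted p = 0.0489), DESeq2 (adjusted p = 0.0187) and in the fit of all libraries (adjusted p = 0.0104). It also passed with another scaling (RLE), with edgeR's own filter and without library 1 or 8.

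The partners of CDK1 did not pass. CCNB1 stood at 306, 219, 279 and 328 CPM in the KO set and 295, 300.1, 307 and 377 CPM in the WT set (-0.19, 95% confidence interval -0.49 to 0.11). CCNA2 stood at 153, 129, 156 and 181 CPM and 202, 157, 194 and 199 CPM (-0.29, 95% confidence interval -0.58 to 0.01). Both cyclins overlapped between the sets. CDC25A stood at 39.9, 25.7, 35.2 and 47.9 CPM and 30.5, 31.7, 27.7 and 39.3 CPM (0.19, 95% confidence interval -0.16 to 0.55). CDC25C stood at 14.4, 15.6, 17.6 and 20.4 CPM and 16.5, 23.2, 17.9 and 20.2 CPM (-0.18, 95% confidence interval -0.58 to 0.22), from as few as 17 counts in a library. WEE1 stood at 96.0, 83.1, 95.7 and 63.1 CPM and 78.2, 72.4, 65.7 and 58.1 CPM (0.30, 95% confidence interval -0.03 to 0.62). The sets overlapped for these genes as well.

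PLK1 stood at 67.1, 77.8, 79.5 and 103 CPM in the KO set and 70.8, 65.3, 84.6 and 92.4 CPM in the WT set (0.06, 95% confidence interval -0.25 to 0.37). AURKA stood at 116, 123, 135 and 233 CPM and 114, 139, 183 and 191 CPM (-0.06, 95% confidence interval -0.39 to 0.27), with library 8 far above the other KO libraries. AURKB stood at 32.3, 47.7, 48.2 and 53.1 CPM and 56.0, 57.3, 59.1 and 58.9 CPM (-0.33, 95% confidence interval -0.65 to -0.01), where the KO set lay below the WT set but the adjusted p was 0.173. Only AURKB of these 3 kinases had sets that lay apart. CDC20 stood at 138, 119.6, 155 and 214 CPM and 122, 126, 163 and 161 CPM (0.12, 95% confidence interval -0.19 to 0.43). BUB3 stood at 147, 131, 179 and 174 CPM and 154, 147, 156 and 169.5 CPM (0.0031, 95% confidence interval -0.29 to 0.29). FOXM1 stood at 43.3, 44.0, 50.8 and 73.8 CPM and 47.7, 63.4, 66.0 and 61.2 CPM (-0.17, 95% confidence interval -0.49 to 0.16). CDC20, BUB3 and FOXM1 overlapped between the sets. MKI67 stood at 587, 493, 661 and 624 CPM and 615, 529, 696 and 601 CPM (-0.05, 95% confidence interval -0.35 to 0.25) and overlapped as well.

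The other pathway lists are read against the same shares of all genes, 6.56% lower and 6.43% higher. CHEK1, the checkpoint kinase that restrains CDC25 phosphatases, was lower (log2 fold change -1.50, SE 0.18, adjusted p = 3.66e-09), and of the 14 other G2/M entry regulators 2 were lower and 1 higher (GADD45A, 0.68). Of 28 replication and S phase genes, 7 were lower, led by LIG1 (-0.78) and GINS2 (-0.73), and 1 higher (MCM10, 0.75). 5 of 33 other kinetochore and centromere genes (ZWINT, -0.74), 3 of 17 other condensin and cohesin genes (NCAPD3, -0.68) and 1 of 27 other spindle and cytokinesis genes (GTSE1, -0.75) were lower and none higher. Of the APC/C genes 2 were higher and 1 lower (CDC27, -0.47), and of the 11 MMB and DREAM subunits tested 1 was higher and 2 lower (LIN9, -0.71).

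With groups exactly as labelled, both comparisons mix the lines. In edgeR's test of the libraries labelled HEK293T CPT against all 8 labelled HEK293T DMSO, 0 of the 45 genes passed upwards and 2 downwards, beside 3.11% and 4.65% of all 20676 genes tested. At an unadjusted p under 0.05, 5 were higher and 10 lower, beside 6802 of all genes in either direction, and DESeq2 called 1 higher and 10 lower. The genes lower in edgeR's test were AURKB (log2 fold change -1.38, SE 0.36, adjusted p = 0.0383) and TTK (log2 fold change -0.69, SE 0.19, adjusted p = 0.0484). AURKB stood at 32.3, 47.7, 48.2 and 53.1 CPM in the 4 libraries labelled HEK293T CPT, below all 8 libraries labelled HEK293T DMSO. For the libraries labelled U2OS ATM KO against those labelled U2OS WT, 6 passed upwards and 0 downwards, beside 2.44% and 1.55% of 19530 genes. Here 24 were higher and 0 lower at an unadjusted p under 0.05, beside 4408 of all genes in either direction, and DESeq2 called 0 lower. The count of 6 rested on library 1, without which 34 genes passed upwards, and on others, since it was 1 without library 10, 2 without library 11, 12, 14, 15 or 16 and 4 without library 13. No direction for a treatment is read from these label-based values.

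Without damage, most of the list was higher in U2OS than in HEK293T cells. U2OS DMSO (libraries 30 to 33) was compared with HEK293T DMSO (22 to 25), and 30 of the 45 genes were higher in U2OS and 9 lower, beside 32% and 30.1% of all 19739 genes tested, so that the share of higher genes was above that of all genes and the share of lower genes below it. In the regrouped libraries, U2OS WT against HEK293T DMSO, 24 were higher and 9 lower, beside 33.3% and 31.1% of 19435. These contrasts share no library. In both of them 23 genes were higher and 8 lower, 0 passed in opposite directions, and 42 had the same sign. Both contrasts compare the same lines, and such overlaps were not counted over all genes. The counts are therefore not read as particular to the list. The share of reads on no feature was 33.6% to 38.7% in U2OS and 23.6% to 30.4% in HEK293T libraries of the first contrast. In the second contrast it was 22.9% to 33.5% and 9.39% to 11%. The part of this shift in the differences between the lines was not tested. With library sizes alone in place of TMM factors, the median of all genes moved from 0.01 to -0.21 in the first contrast and from -0.0094 to -0.35 in the second, and the split of the 45 genes moved to 24 higher and 13 lower and to 17 higher and 13 lower, so the counts in each direction depend on the scaling.

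**Figure D5:**
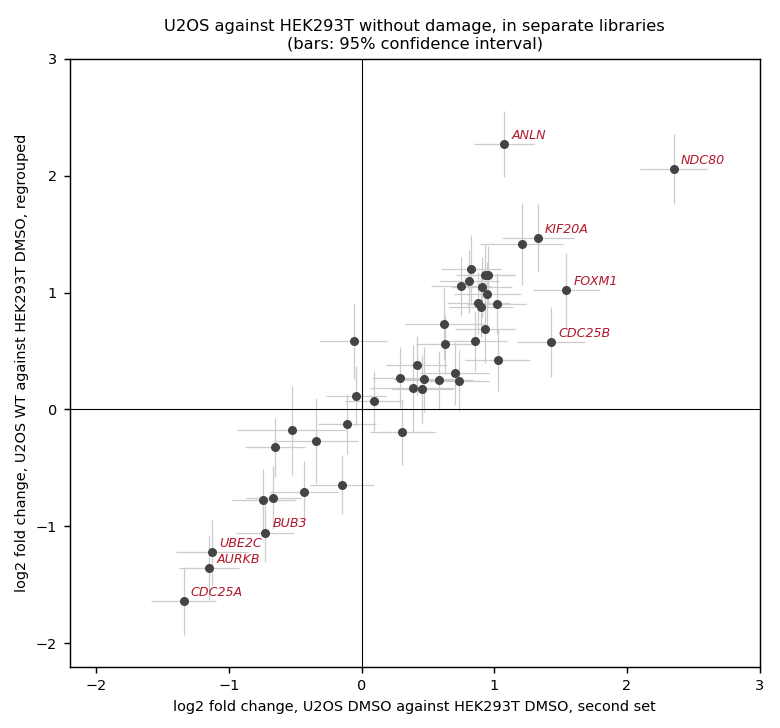
Log2 fold changes of the 45 genes (points) in U2OS against HEK293T cells without damage, in the DMSO libraries 30 to 33 and 22 to 25 (horizontal axis) and in the regrouped WT and DMSO libraries (vertical axis), with bars for 95% confidence intervals. The points run broadly along the diagonal from CDC25A (-1.34 and -1.64) to NDC80 (2.35 and 2.06).

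NDC80, the kinetochore protein that binds microtubules, stood out. It was at 329, 376, 397 and 507 CPM in libraries 30 to 33 of U2OS cells and at 69.3, 75.9, 84.2 and 85.4 CPM in libraries 22 to 25 of HEK293T cells (log2 fold change 2.35, SE 0.12, adjusted p = 8.16e-18). In the regrouped libraries it was at 289, 313, 342 and 408 CPM and 74.4, 114, 95.4 and 65.9 CPM (log2 fold change 2.06, SE 0.15, adjusted p = 1.44e-14). FOXM1 (1.54 and 1.02), KIF20A (1.33 and 1.47) and CENPA (1.20 and 1.42) were also higher in U2OS in both contrasts. ANLN stood at 282, 255, 237 and 215 and 131, 116, 108 and 115 CPM in the first contrast (log2 fold change 1.07, SE 0.11, adjusted p = 3.30e-10) and at 408, 311, 436 and 379.8 and 88.3, 67.4, 85.0 and 101 CPM in the second (log2 fold change 2.27, SE 0.14, adjusted p = 2.19e-16). No U2OS library overlapped a HEK293T library for NDC80 or ANLN.

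CDC25A was the clearest gene in the other direction. Its 16 undamaged U2OS and HEK293T values, printed above, ran from 27.7 to 39.3 CPM in U2OS and from 80.2 to 119 CPM in HEK293T cells (log2 fold change -1.34, SE 0.12, adjusted p = 8.20e-12 in the first contrast, log2 fold change -1.64, SE 0.14, adjusted p = 2.39e-12 in the second). AURKB (-1.15 and -1.36), UBE2C (-1.13 and -1.22), BUB3 (-0.73 and -1.06), TTK (-0.74 and -0.78), PRC1 (-0.67 and -0.75), MAD2L1 (-0.44 and -0.70) and NCAPG (-0.65 and -0.32) were lower in U2OS in both. PLK1 passed upwards in the first contrast (0.31, SE 0.12, adjusted p = 0.0263) and did not pass in the second (-0.19, SE 0.14, adjusted p = 0.226). Its call in the first was lost with library sizes alone (0.077, adjusted p = 0.601), in the fit of all 32 libraries (adjusted p = 0.0522) and without library 23, 24, 25, 32 or 33. Members that act together thus differed in sign between the lines, as the checkpoint kinases BUB1 (0.82 and 1.20) and TTK did, and as AURKA (0.93 and 0.69) and AURKB did. With library sizes alone, BUB1 and AURKA stayed above 0 and TTK and AURKB below 0 in both contrasts.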

How the data were processed

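The authors deposited 1 table of raw counts per gene for 32 QuantSeq 3′ libraries of HEK293T and U2OS cells, made with a pipeline that collapses molecular identifiers; aligner and genome build are not given in the sources used here. Of its rows, 5 summary rows and 92 spike-in rows were left out, and 0 columns were unused. Gene identifiers were named with GENCODE release 29 (56531 of 60107 matched). The 45 genes, the marker lists and the lists of other pathway genes were chosen with earlier results of these data known.

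Counts were tested with edgeR 4.0.16 (quasi-likelihood, TMM scaling) in R 4.3.3, keeping a gene if 2 or more of the libraries compared held over 1 count, with Benjamini-Hochberg adjustment over all of them. Confidence intervals (95%) are approximate, from the fold change, its F statistic and the t distribution. Mean levels are of log2 CPM with a prior count of 2. Alternatives were edgeR's likelihood ratio test, DESeq2 1.42.0, other scalings and filters, all libraries in 1 fit, and leaving out each library in turn. On simulated data, the test recovered 58.8% of genes changed by 0.585 on the log2 scale and 88.8% of those changed by 1 for U2OS CPT (19080 genes), 28.7% and 81.2% for the U2OS ATM KO, regrouped (18591), and 12.5% and 57.5% for the difference between CPT responses (22363). Each simulation changed 80 genes by 0.585, 80 by 1 and 40 by 2 in size, far fewer than passed in the data. Adjusted p-values depend on that number, so these rates need not hold for the real comparisons.

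Every one of the 45 genes could be named. Values in every library were given for 14 of them (CCNB1, CDK1, CCNA2, CDC20, PLK1, AURKA, AURKB, CDC25A, CDC25B, CDC25C, WEE1, BUB3, FOXM1 and MKI67), for the 5 with the largest change past the cutoff in each CPT comparison, and for CDKN1A. ATM was given in this way only for the regrouped U2OS ATM KO and WT libraries. In the contrasts between the lines, in the fits by label and for the difference between CPT responses only some of the 14 and of the 5 largest were given in this way. Of each pathway list, at most the 2 largest rises and 2 largest falls that passed, at a log2 CPM over 3, were named.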

Additional observations from a re-analysis of the deposited data

Results flagged for a closer look

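The genes chosen for values in every library (26, with ATM and CDKN1A included) and the mean level of the list were examined for a library far from the other 3 of its set, in 216 sets of 4 values. This marked 11 sets, where chance alone marks about 1 in 20, or 10.8. In the regrouped U2OS ATM KO set, library 8 was high for AURKA (233 CPM, the others 116 to 135) and CDC25B (69.9 CPM, the others 41.3 to 42.7), and library 4 was low for NCAPH (72.4 CPM, the others 88.4 to 89.9). In the regrouped U2OS WT set, library 7 was high for CCNB1 (377 CPM, the others 295 to 307) and BIRC5 (152 CPM, the others 117 to 121), and library 3 was low for CCNA2 (157 CPM, the others 194 to 202). In the regrouped HEK293T sets, library 16 was low for CCNB1 (259 CPM, the others 333 to 346) and library 17 was high for CCNB1 (183 CPM, the others 159 to 162) and CCNA2 (153 CPM, the others 130.3 to 134). With the ATM inhibitor, library 21 was low for FOXM1 (32.7 CPM, the others 39.0 to 40.3) and BIRC5 (134 CPM, the others 159 to 162).

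The response to CPT differed between U2OS and the regrouped HEK293T libraries for 40 of the 45 genes, by a test of the difference itself in edgeR. The largest differences were those of KIF20A (-2.49 on the log2 scale), AURKA (-2.36), KIF4A (-2.32), CENPA (-2.16) and PLK1 (-2.14), all lower in U2OS. The line, the CPT dose and the libraries' label problem cannot be told apart here.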

How the results depend on the processing

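The falls in U2OS with CPT (38 to 41 genes without 1 library, 41 to 44 under the other settings), the rises in the regrouped HEK293T libraries (30 to 34 and 33 to 36) and the lower response in U2OS (40 to 41 and 40 to 43) stayed within 1.5 times their main counts under the alternatives run. The single fall in the regrouped HEK293T libraries, PLK4, was 0 with DESeq2 and 0 to 1 without 1 library. With the ATM inhibitor 0 to 1 genes rose without 1 library. In the regrouped U2OS ATM KO, 2 to 6 genes were lower under the other settings, with 2 for library sizes alone. Without 1 library 3 to 7 were lower and 0 to 1 higher, the 7 and WEE1 as the riser (0.44) without library 8. The fits by label depended most on the setting. For the label HEK293T CPT, genes lower numbered 10 with DESeq2, 4 with library sizes alone, 1 with no filter, 9 with all 32 libraries in 1 fit, 0 with libraries 3, 5, 7 and 17 as controls and 0 to 5 without 1 library, and genes higher numbered 1 with DESeq2, 5 in the fit of all libraries and 0 to 4 without 1 library. For the label U2OS ATM KO, genes higher numbered 12 with the likelihood ratio test, 14 with DESeq2, 10 with edgeR's own filter, 11 in the fit of all libraries and 1 to 34 without 1 library. SMC2 in the regrouped contrast of the lines changed sign with library sizes alone (-0.037, adjusted p = 0.841). Library sizes alone moved the median of all genes to -0.16 for U2OS CPT, -0.22 for the label HEK293T CPT and -0.26 for the difference between the CPT responses. The cause of these changes was not tested. No paired analysis was possible because the groups share no replicate numbers and no label ties libraries of different groups to 1 repeat. Libraries 1 and 2 are the shallowest, and the 3′ counts of low genes such as CDC25C limit what the KO comparison can show.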
